A study of Homo sapiens with 2 samples.

Results

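The enzymes of serine synthesis and folate-bound one-carbon metabolism were followed in single cells of UMUC3, a human bladder carcinoma line, with and without a knockdown of GANAB. They were 9 genes of the 33538 listed, found by symbol: PHGDH, PSAT1, PSPH, SHMT1, SHMT2, MTHFD1, MTHFD2, MTHFD1L and ASNS. They had been chosen by their roles and on their UMI ratios between knockdown and control cells, over all cells and in the TMEM132D-AS1 class below, so each ratio of that contrast below is a description, with no test. One library held GANAB-knockdown UMUC3 cells and the other control UMUC3 cells. Both lines had been implanted into the bladders of C57 nude mice, a strain short of T cells, and grown there for 14 days before about 10000 cells were loaded per channel. The sources used here give neither the knockdown agent nor the number of mice pooled, nor whether the line was 1 clone. With 1 library per group there is no replicate check, and every interval covers counting error only.

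PHGDH, PSAT1 and PSPH turn a glycolytic intermediate into serine. The hydroxymethyltransferases SHMT1, in the cytosol, and SHMT2, in mitochondria, pass a carbon unit of serine to folate. MTHFD2 and MTHFD1L then carry it through the mitochondrial folate steps to formate, and MTHFD1 carries the cytosolic ones, which feed purine and thymidylate synthesis. ASNS makes asparagine from aspartate. PHGDH, PSAT1, SHMT2, MTHFD2 and ASNS are known targets of ATF4, the transcription factor induced when the endoplasmic reticulum or amino acid supply is under stress. GANAB itself encodes the catalytic subunit of glucosidase II, which trims glucose from new glycoproteins in that compartment.

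Promoters are shown for the genes that stood apart between the libraries or that carried a searched motif. RefSeq gives them on GRCh38.p14 as 250 bases before to 50 after a transcript start, and 7 of the 9 genes had an entry, all but PSPH and SHMT2. Each line runs 5′ to 3′ on the gene's strand, and capitals mark TGATGNAA, the core of the C/EBP-ATF response element bound by ATF4 dimers, or CACGTG, the E-box bound by MYC and related factors. Both motifs were searched on both strands and do not overlap here. The first listed start is shown for ASNS (chr7:97872359-97872658, minus strand), MTHFD1L (chr6:150866236-150866535, plus), MTHFD1 (chr14:64388103-64388402, plus), PHGDH (chr1:119711684-119711983, plus) and PSAT1 (chr9:78296875-78297174, plus).
ASNS: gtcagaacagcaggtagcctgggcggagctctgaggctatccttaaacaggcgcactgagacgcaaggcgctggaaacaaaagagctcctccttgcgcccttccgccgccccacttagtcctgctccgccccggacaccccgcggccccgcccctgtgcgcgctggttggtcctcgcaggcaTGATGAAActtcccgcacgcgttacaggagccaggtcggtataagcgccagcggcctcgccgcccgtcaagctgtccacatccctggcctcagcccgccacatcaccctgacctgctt
MTHFD1L: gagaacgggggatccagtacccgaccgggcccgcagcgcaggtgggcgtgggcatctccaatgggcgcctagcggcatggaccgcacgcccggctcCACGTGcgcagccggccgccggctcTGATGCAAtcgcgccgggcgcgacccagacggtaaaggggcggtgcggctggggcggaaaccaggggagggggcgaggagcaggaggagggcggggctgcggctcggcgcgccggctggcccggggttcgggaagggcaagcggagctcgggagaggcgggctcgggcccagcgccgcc
MTHFD1: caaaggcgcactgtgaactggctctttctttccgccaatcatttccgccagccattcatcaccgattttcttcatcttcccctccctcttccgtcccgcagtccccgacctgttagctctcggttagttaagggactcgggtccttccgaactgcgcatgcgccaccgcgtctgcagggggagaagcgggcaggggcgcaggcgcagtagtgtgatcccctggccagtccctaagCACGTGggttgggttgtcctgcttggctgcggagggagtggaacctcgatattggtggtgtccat
PHGDH: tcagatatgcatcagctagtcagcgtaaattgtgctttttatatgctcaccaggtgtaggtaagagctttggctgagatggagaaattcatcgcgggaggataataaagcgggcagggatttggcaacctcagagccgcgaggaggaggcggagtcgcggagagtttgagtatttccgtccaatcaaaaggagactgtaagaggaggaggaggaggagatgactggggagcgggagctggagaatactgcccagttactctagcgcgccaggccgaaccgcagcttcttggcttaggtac
PSAT1: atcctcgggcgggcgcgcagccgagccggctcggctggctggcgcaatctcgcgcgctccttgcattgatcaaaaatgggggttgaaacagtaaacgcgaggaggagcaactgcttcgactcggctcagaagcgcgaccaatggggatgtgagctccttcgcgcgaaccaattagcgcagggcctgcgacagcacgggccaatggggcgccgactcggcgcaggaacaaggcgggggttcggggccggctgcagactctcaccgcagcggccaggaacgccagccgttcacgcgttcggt
TGATGNAA stood in the ASNS window at position -68 from the start (TGATGAAA) and in the MTHFD1L window at position -129 (TGATGCAA). CACGTG stood in the MTHFD1 window at position -15 and in the MTHFD1L window at position -154. Of 35116 RefSeq promoters of the same length, 3.62% held TGATGNAA and 7.26% held CACGTG. Neither run of letters was in the windows of PHGDH, PSAT1, SHMT1 and MTHFD2, which says nothing of what binds there.

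Cells were barcodes with at least 15000 unique molecular identifiers (UMIs, counted RNA molecules) and at most 20% mitochondrial UMIs. The knockdown library gave 2672 of them at a median depth of 40933 UMIs and the control library 4385 at a median depth of 44046 UMIs, and 4 cell barcodes stood in both. Mitochondrial genes took a median of 0.923% of UMIs per knockdown cell and 1.51% per control cell. Levels are counts per 1000000 UMIs of the same cells (CPM). GANAB stood at 42.3 CPM (5615 UMIs) in knockdown cells and 127 CPM (27113 UMIs) in control cells, a log2 ratio of -1.58 (95% interval -1.62 to -1.54). The line's intermediate filament gene VIM was at 5697 CPM in knockdown and 3548 CPM in control cells, and 5 of 7 carcinoma-line markers reached 10 CPM in the knockdown library and 4 of 7 in the control library. Counts on markers of host cell types were low in both, and none of 7 fibroblast genes reached 10 CPM. Of these COL1A1 was highest, at 5.18 CPM in knockdown and 6.61 CPM in control cells, and DCN and LUM were at 0. No T and NK cell marker exceeded 0.0280 CPM. All listed genes are human, so mouse reads may be lost or miscounted. The neutrophil list summed to 67.5 CPM in knockdown and 129.7 CPM in control cells, nearly all of it G0S2, and the macrophage list to 25.2 and 26.96 CPM, nearly all CD68. Doublets were not removed.

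Over all cells the first 2 enzymes of serine synthesis were higher in the knockdown library and the last was lower. PHGDH, the dehydrogenase that commits carbon to serine, had 5876 UMIs or 44.3 CPM in knockdown cells and 4293 UMIs or 20.04 CPM in control cells, a log2 ratio of 1.14 (1.09 to 1.20). PSAT1, the aminotransferase of the next step, had 5327 UMIs or 40.1 CPM in knockdown cells and 5441 UMIs or 25.4 CPM in control cells (log2 ratio 0.66, 0.61 to 0.71). PSPH, the phosphatase that releases serine, had 852 UMIs or 6.42 CPM in knockdown cells and 2165 UMIs or 10.1 CPM in control cells (log2 ratio -0.65, -0.77 to -0.54). The counting intervals of the libraries did not overlap for any of the 3. This does not set them apart, as the same held for the rest of the 9 enzymes. The share of all genes with separate intervals is not given here, so nothing is read from the separation. Even those of SHMT1 were separate, at 9.24 to 10.3 CPM in knockdown and 10.7 to 11.6 CPM in control cells. Summed over the 3 genes, the level was 90.8 CPM in knockdown cells and 55.6 CPM in control cells. PSPH passed the minimum of 10 CPM in either library only through its control level.

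A call required a ratio of at least 1.5-fold, up or down, and an interval that left out equality, a rule of size among genes with at least 10 CPM in either library. By it 2 of the 9 enzymes were higher (PHGDH and PSAT1) and 1 was lower (PSPH), where 7.69% of 7872 genes were higher and 10.4% lower. Since these very values chose the enzymes, nothing is read from the counts. The median log2 ratio was 0.19 over the 9 enzymes and -0.07 over all genes.

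The 2 serine hydroxymethyltransferases were near equal between the libraries. SHMT1 had 1296 UMIs or 9.77 CPM in knockdown cells and 2390 UMIs or 11.2 CPM in control cells, a log2 ratio of -0.19 (-0.29 to -0.09). SHMT2 had 6117 UMIs or 46.1 CPM in knockdown cells and 8642 UMIs or 40.3 CPM in control cells, a log2 ratio of 0.19 (0.14 to 0.24). The cytosolic enzyme was thus slightly lower and the mitochondrial one slightly higher, both inside the 1.5-fold rule.

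The folate enzymes went both ways. MTHFD1, the cytosolic enzyme of 3 activities, had 5057 UMIs or 38.1 CPM in knockdown cells and 11784 UMIs or 55.0 CPM in control cells (log2 ratio -0.53, -0.58 to -0.48). MTHFD2, the mitochondrial dehydrogenase and cyclohydrolase, had 10478 UMIs or 79.0 CPM in knockdown cells and 14147 UMIs or 66.0 CPM in control cells (0.26, 0.22 to 0.29). MTHFD1L, which releases formate from the mitochondrion's folate, had 3901 UMIs or 29.4 CPM in knockdown cells and 8604 UMIs or 40.2 CPM in control cells (-0.45, -0.51 to -0.40). Consecutive mitochondrial steps, MTHFD2 and MTHFD1L, therefore lay on opposite sides of equality. ASNS had 3767 UMIs or 28.4 CPM in knockdown cells and 5125 UMIs or 23.9 CPM in control cells (0.25, 0.19 to 0.31). None of these 4 genes reached the 1.5-fold rule. All 9 together summed to 322 CPM in knockdown and 292 CPM in control cells.

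**Figure D1:**
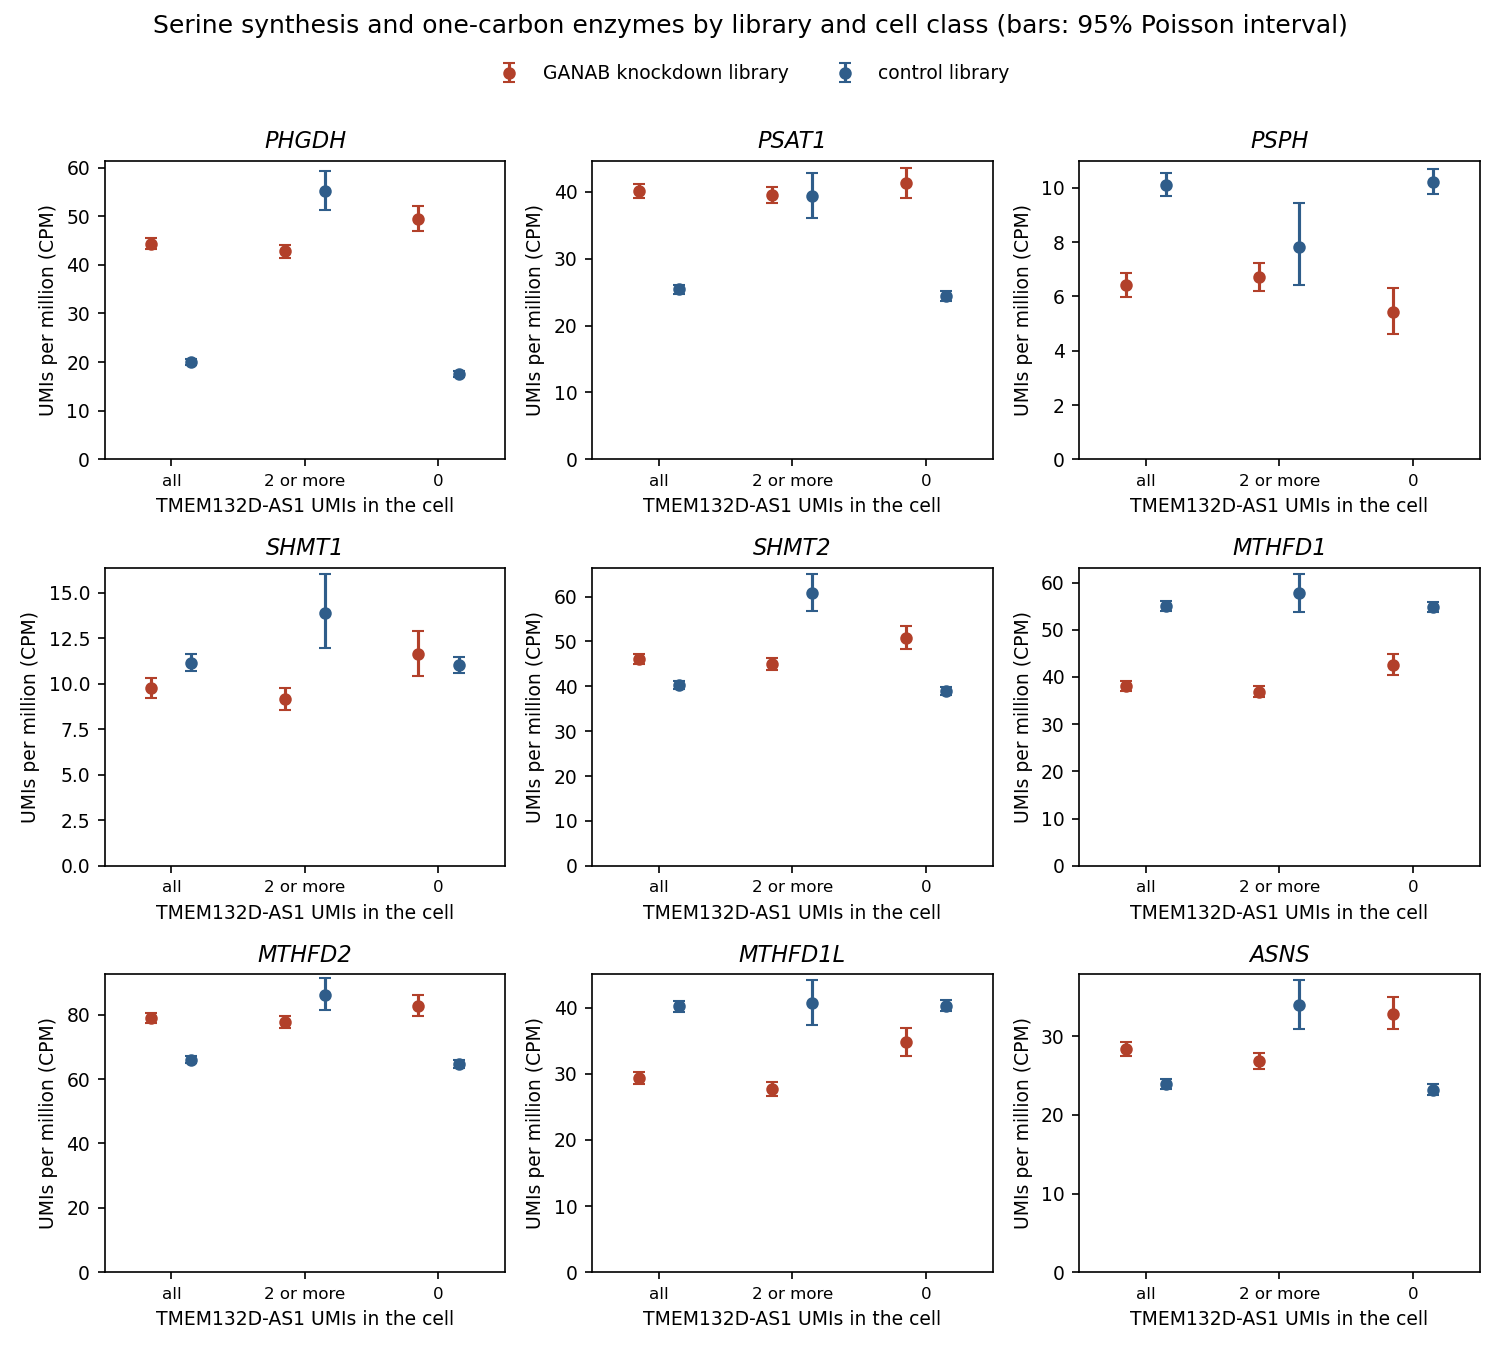
Level of each enzyme in CPM (vertical axis) in the knockdown library (left point of each pair) and the control library (right point), for all cells, cells with 2 or more TMEM132D-AS1 UMIs and cells with 0; bars are exact 95% Poisson intervals. PHGDH in control cells stands at 55.1 CPM in cells with 2 or more TMEM132D-AS1 UMIs and at 17.5 CPM in cells with 0, while its knockdown values stay between 42.7 and 49.5 CPM.

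The libraries differ in their makeup of cells. TMEM132D-AS1, a transcript antisense to TMEM132D, was present with at least 2 UMIs in 1942 knockdown cells (72.7%) and in 241 control cells (5.50%). These are called TMEM132D-AS1-positive here, and cells with 0 UMIs, 616 in the knockdown and 4102 in the control library, negative. Median depth was 41100 UMIs in positive knockdown cells and 51552 in positive control cells, against 42696 in negative knockdown cells and 43787 in negative control cells. GANAB was lower in the knockdown library within both classes: 38.1 CPM in knockdown and 130.3 CPM in control cells among positives, and 55.3 CPM and 126 CPM among negatives.

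Taken over all phases, the excess of PHGDH and PSAT1 was absent in TMEM132D-AS1-positive cells, while PSAT1 kept a smaller one in G1 cells (below). PHGDH had 4176 UMIs or 42.7 CPM in positive knockdown cells and 754 UMIs or 55.1 CPM in positive control cells, a log2 ratio of -0.37 (-0.48 to -0.25). PSAT1 had 3861 UMIs or 39.5 CPM in positive knockdown cells and 538 UMIs or 39.3 CPM in positive control cells (0.01, -0.12 to 0.14). PSPH had 655 UMIs or 6.70 CPM in positive knockdown cells and 107 UMIs or 7.83 CPM in positive control cells (-0.22, -0.52 to 0.09), below the minimum for a call. The intervals of PSAT1 and PSPH include equality, and that of PHGDH lies on the lower side.

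MTHFD1 and SHMT1 had the lowest ratios of the 9 over all phases. SHMT1 had 895 UMIs or 9.16 CPM in positive knockdown cells and 190 UMIs or 13.9 CPM in positive control cells (-0.60, -0.83 to -0.37), and it passed the minimum only through the control cells. MTHFD1 had 3602 UMIs or 36.9 CPM in positive knockdown cells and 789 UMIs or 57.7 CPM in positive control cells (-0.65, -0.76 to -0.53). The mitochondrial enzymes were short of the rule. SHMT2 stood at 45.0 CPM in positive knockdown cells and 60.9 CPM in positive control cells (-0.43), MTHFD2 at 77.7 and 86.2 CPM (-0.15), and MTHFD1L at 27.7 and 40.7 CPM (-0.55). ASNS stood at 26.8 CPM in positive knockdown cells and 33.9 CPM in positive control cells (-0.34). By the size rule none of the 8 enzymes with enough counts was higher and 2 were lower (MTHFD1 and SHMT1), where 3.58% of 7720 genes were higher and 4.59% lower, and the rule used this contrast too. Both lower calls were lost under edgeR's TMM scaling, which left 0, and MTHFD1 was the 1 remaining call under median-of-ratios scaling. The median log2 ratio over the 9 was -0.37, beside -0.09 over all genes, and all 9 together summed to 312 CPM in positive knockdown and 396 CPM in positive control cells.

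In cells with no TMEM132D-AS1 UMI, a comparison added after seeing the data, the pattern of all cells was present. PHGDH stood at 49.5 CPM (1525 UMIs) in negative knockdown cells and 17.5 CPM (3477 UMIs) in negative control cells, a log2 ratio of 1.499 (1.41 to 1.59). PSAT1 stood at 41.3 CPM in negative knockdown cells and 24.4 CPM in negative control cells (0.76), and PSPH at 5.42 and 10.2 CPM (-0.92). ASNS was at 32.9 CPM in negative knockdown cells and 23.2 CPM in negative control cells (0.50), SHMT2 at 50.8 and 39.0 CPM (0.38), and MTHFD2 at 82.7 and 64.7 CPM (0.36). MTHFD1 was at 42.6 CPM in negative knockdown cells and 54.8 CPM in negative control cells (-0.36), MTHFD1L at 34.8 and 40.3 CPM (-0.21), and SHMT1 at 11.6 and 11.03 CPM (0.08). PHGDH and PSAT1 were called higher and PSPH lower, where 7.46% of 7867 genes were higher and 8.53% lower. PSPH passed the minimum there only through the negative control cells. G0S2 stood at 189.6 CPM in negative knockdown cells and 135 CPM in negative control cells, and the part of such differences in the ratios was not tested.

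**Figure D2:**
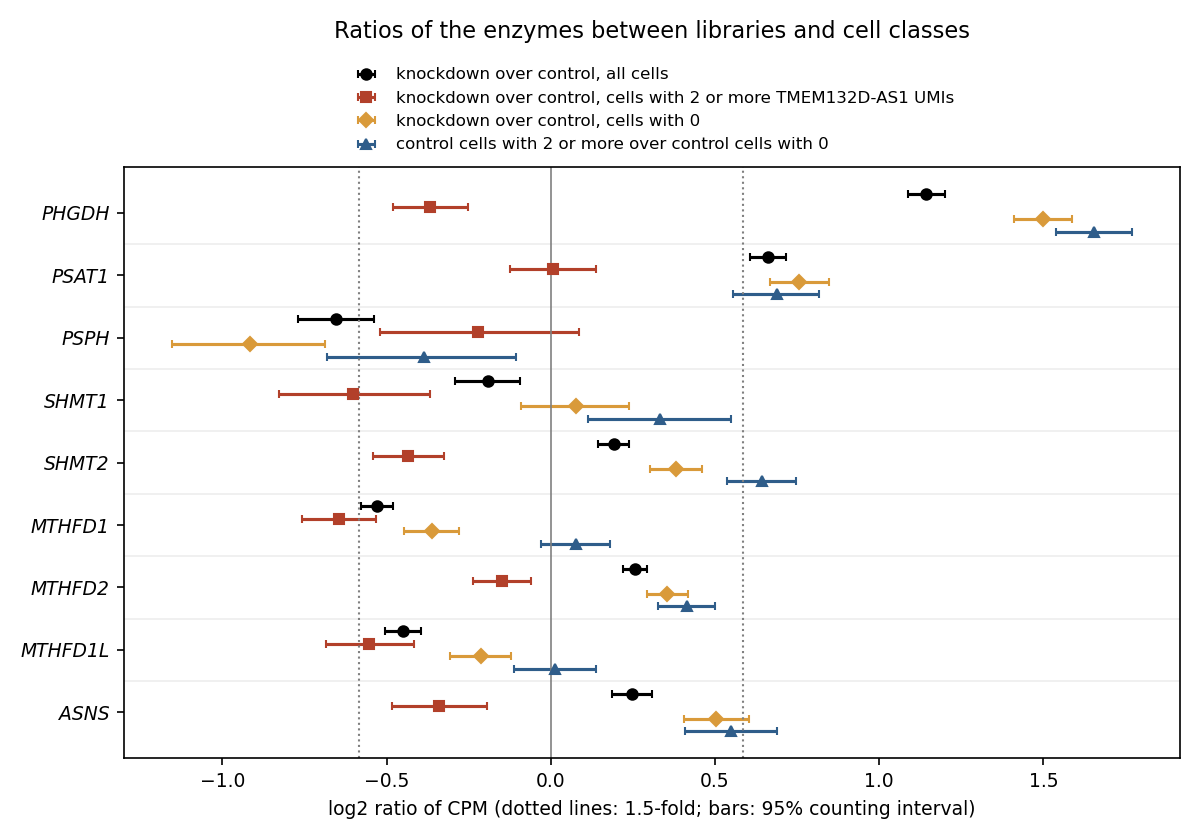
Log2 ratio of CPM (horizontal axis) for each enzyme in 4 comparisons, with 95% counting intervals and dotted lines at 1.5-fold. PHGDH lies at 1.14 over all cells and at 1.499 in cells with 0 TMEM132D-AS1 UMIs but at -0.37 in cells with 2 or more, and control cells of the 2 classes differ by 1.66.

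The control library by itself held cells with high PHGDH. Positive control cells stood at 55.1 CPM (754 UMIs) and negative control cells at 17.5 CPM (3477 UMIs), a log2 ratio of 1.66 (1.54 to 1.77) or 3.15-fold. PSAT1 was at 39.3 CPM (538 UMIs) in positive and 24.4 CPM (4852 UMIs) in negative control cells (0.69, 0.56 to 0.82), and SHMT2 at 60.9 CPM (832 UMIs) and 39.0 CPM (7741 UMIs) (0.64, 0.54 to 0.75). These 3 enzymes were called higher and none lower, where 4.65% of 7748 genes were higher and 4.47% lower. The call of SHMT2 was lost in G1 cells (0.58) and when 1 UMI of TMEM132D-AS1 made a cell positive (0.57). ASNS was at 33.9 CPM in positive and 23.2 CPM in negative control cells (0.55), MTHFD2 at 86.2 and 64.7 CPM (0.41) and SHMT1 at 13.9 and 11.03 CPM (0.33). MTHFD1 was at 57.7 CPM in positive and 54.8 CPM in negative control cells (0.08), and MTHFD1L at 40.7 and 40.3 CPM (0.01), both with intervals that include equality. PSPH was at 7.83 CPM in positive and 10.2 CPM in negative control cells (-0.39, -0.68 to -0.11). GANAB did not part these classes, at 130.3 CPM in positive and 126 CPM in negative control cells (0.04, -0.03 to 0.11). The 241 positive control cells are the same cells that serve as the control in the contrast among positives, so the 2 sets of ratios are not independent.

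No such step was seen inside the knockdown library, in a comparison also added after seeing the data. PHGDH stood at 42.7 CPM in positive and 49.5 CPM in negative knockdown cells (-0.21) and PSAT1 at 39.5 and 41.3 CPM (-0.06). The 9 log2 ratios ran from -0.34 (SHMT1) to 0.31 (PSPH), none of the 8 enzymes with enough counts was called, and 0.382% of 7584 genes were higher and 0.752% lower. Of the 9 enzymes, PHGDH parted the classes of control cells most.

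The level of PHGDH in control cells followed the TMEM132D-AS1 count on both sides of the threshold of 2 UMIs. It was 17.5 CPM in control cells with 0 UMIs, 32.0 CPM in 42 cells with 1, 33.7 CPM in 40 cells with 2 to 3, 51.3 CPM in 86 cells with 4 to 7 and 63.9 CPM in 115 cells with 8 or more. In knockdown cells the same classes stood at 49.5, 41.7, 40.0, 41.0 and 44.0 CPM. SHMT2 in control cells was at 39.0, 35.6, 48.6, 64.5 and 62.2 CPM from the lowest class to the highest, and in knockdown cells at 50.8, 36.9, 33.8, 39.3 and 49.4 CPM. PSAT1 in control cells was at 24.4, 26.3, 21.5, 46.0 and 40.6 CPM, with 46 UMIs behind the value at 2 to 3. Deeper cells gather more TMEM132D-AS1 UMIs: median depth was 28235 UMIs in knockdown cells with 2 to 3 and 53054 in those with 8 or more, and 45034 and 56740 in control cells of the same classes.

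**Figure D3:**
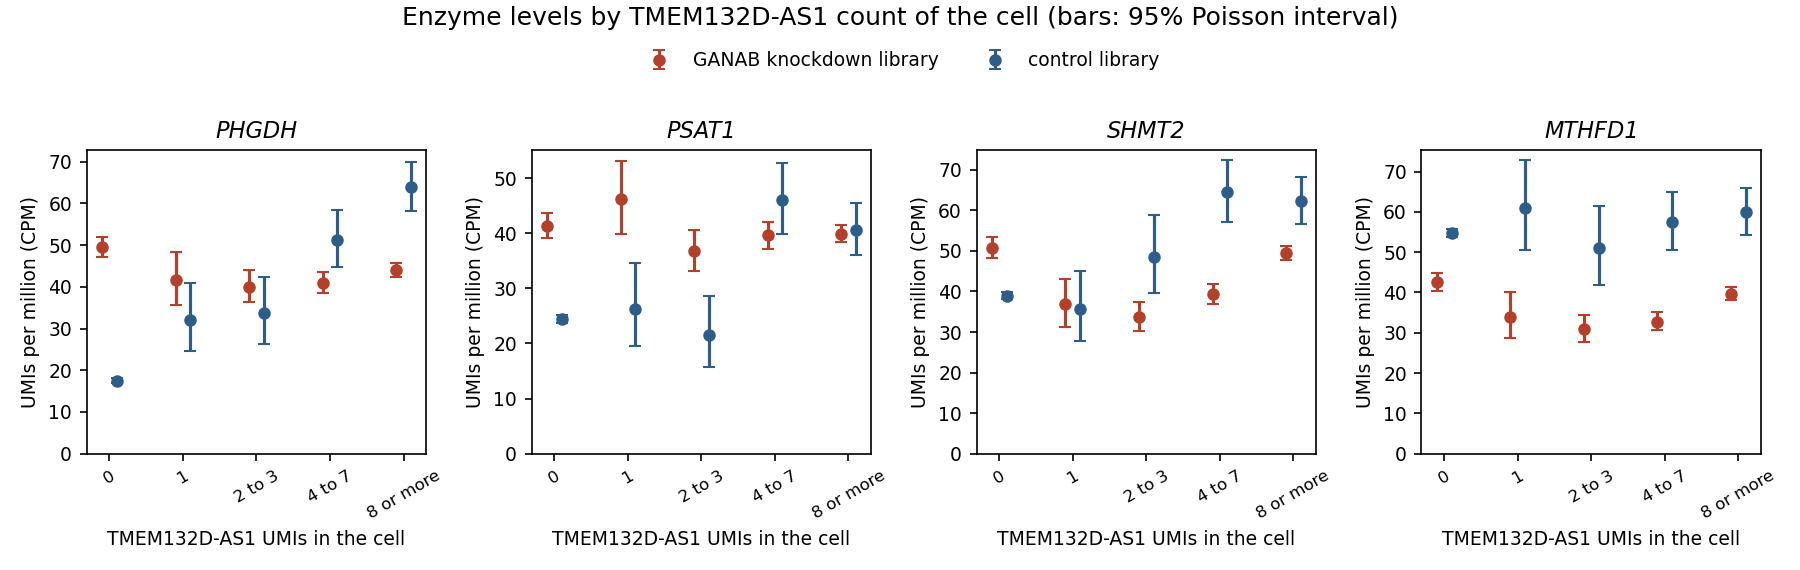
Level of PHGDH, PSAT1, SHMT2 and MTHFD1 in CPM (vertical axis) by the number of TMEM132D-AS1 UMIs in the cell (horizontal axis), knockdown left of control at each class, with exact 95% Poisson intervals. PHGDH in control cells ranges from 17.5 CPM at 0 UMIs to 63.9 CPM at 8 or more, and in knockdown cells it lies between 40.0 and 49.5 CPM.

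Cell cycle phase went with most of these enzymes inside each library, a contrast that did not choose them. Phases were scored from 43 S and 54 G2M genes on cells thinned to 15000 UMIs, and phase calls alone do not measure cycling. Scored S or G2M cells made up 28.9% of knockdown cells (Clopper-Pearson 95% interval 27.2 to 30.7) and 50.2% of control cells (48.7 to 51.7). Among positive cells the shares were 27.8% in the knockdown library and 49.0% in the control library. In the knockdown library S cells exceeded G1 cells by the size rule for 7 of the 9 enzymes, all but PSAT1 and PSPH, where 18.9% of 7915 genes did. In the control library S cells did so for 8 of the 9, all but PSPH, where 13.0% of 7817 genes did. No enzyme was lower in S than in G1 cells by the rule, where 13.5% of genes were in the knockdown and 6.65% in the control library. SHMT1 was under 10 CPM in G1 cells of both libraries and PSPH in those of the control library, so they entered only through their S level. In the knockdown library PSPH was at 7.40 CPM in S and 6.32 CPM in G1 cells, so no call was possible there.

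The cytosolic folate enzymes had the widest steps. MTHFD1 in the knockdown library was at 67.3 CPM in S and 21.3 CPM in G1 cells (log2 ratio 1.66, 1.56 to 1.75), and in the control library at 76.1 CPM in S and 30.8 CPM in G1 cells (1.30, 1.24 to 1.37). SHMT1 in the knockdown library was at 17.1 CPM in S and 5.73 CPM in G1 cells (1.58), and in the control library at 17.7 and 5.55 CPM (1.67). SHMT2 in the knockdown library was at 69.1 CPM in S and 28.98 CPM in G1 cells (1.25), and in the control library at 48.4 and 27.5 CPM (0.81). MTHFD1L was at 44.9 CPM in S and 18.8 CPM in G1 knockdown cells (1.25) and at 51.1 and 25.8 CPM in control cells (0.99). MTHFD2 was at 109.6 CPM in S and 57.1 CPM in G1 knockdown cells (0.94) and at 83.5 and 42.1 CPM in control cells (0.99).

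The serine enzymes and ASNS had log2 ratios of S over G1 cells between 0.20 and 0.81. PHGDH was at 54.3 CPM in S and 35.8 CPM in G1 knockdown cells (0.60) and at 24.2 and 13.8 CPM in control cells (0.81). PSAT1 was at 44.4 CPM in S and 38.6 CPM in G1 knockdown cells (0.20) and at 31.3 and 19.8 CPM in control cells (0.66). ASNS was at 36.7 CPM in S and 24.2 CPM in G1 knockdown cells (0.60) and at 29.3 and 17.6 CPM in control cells (0.73). In G2M over G1 cells, 6 of 8 enzymes with enough counts passed the rule in the knockdown library and 7 in the control library. Over all genes 19.3% and 14.7% were higher. No enzyme was lower, where 17.8% and 9.24% of genes were. PSPH was under 10 CPM in G1 and G2M cells of both libraries, so no call was possible. SHMT1 entered only through its G2M level. Whether a step differed between the libraries was not tested.

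**Figure D4:**
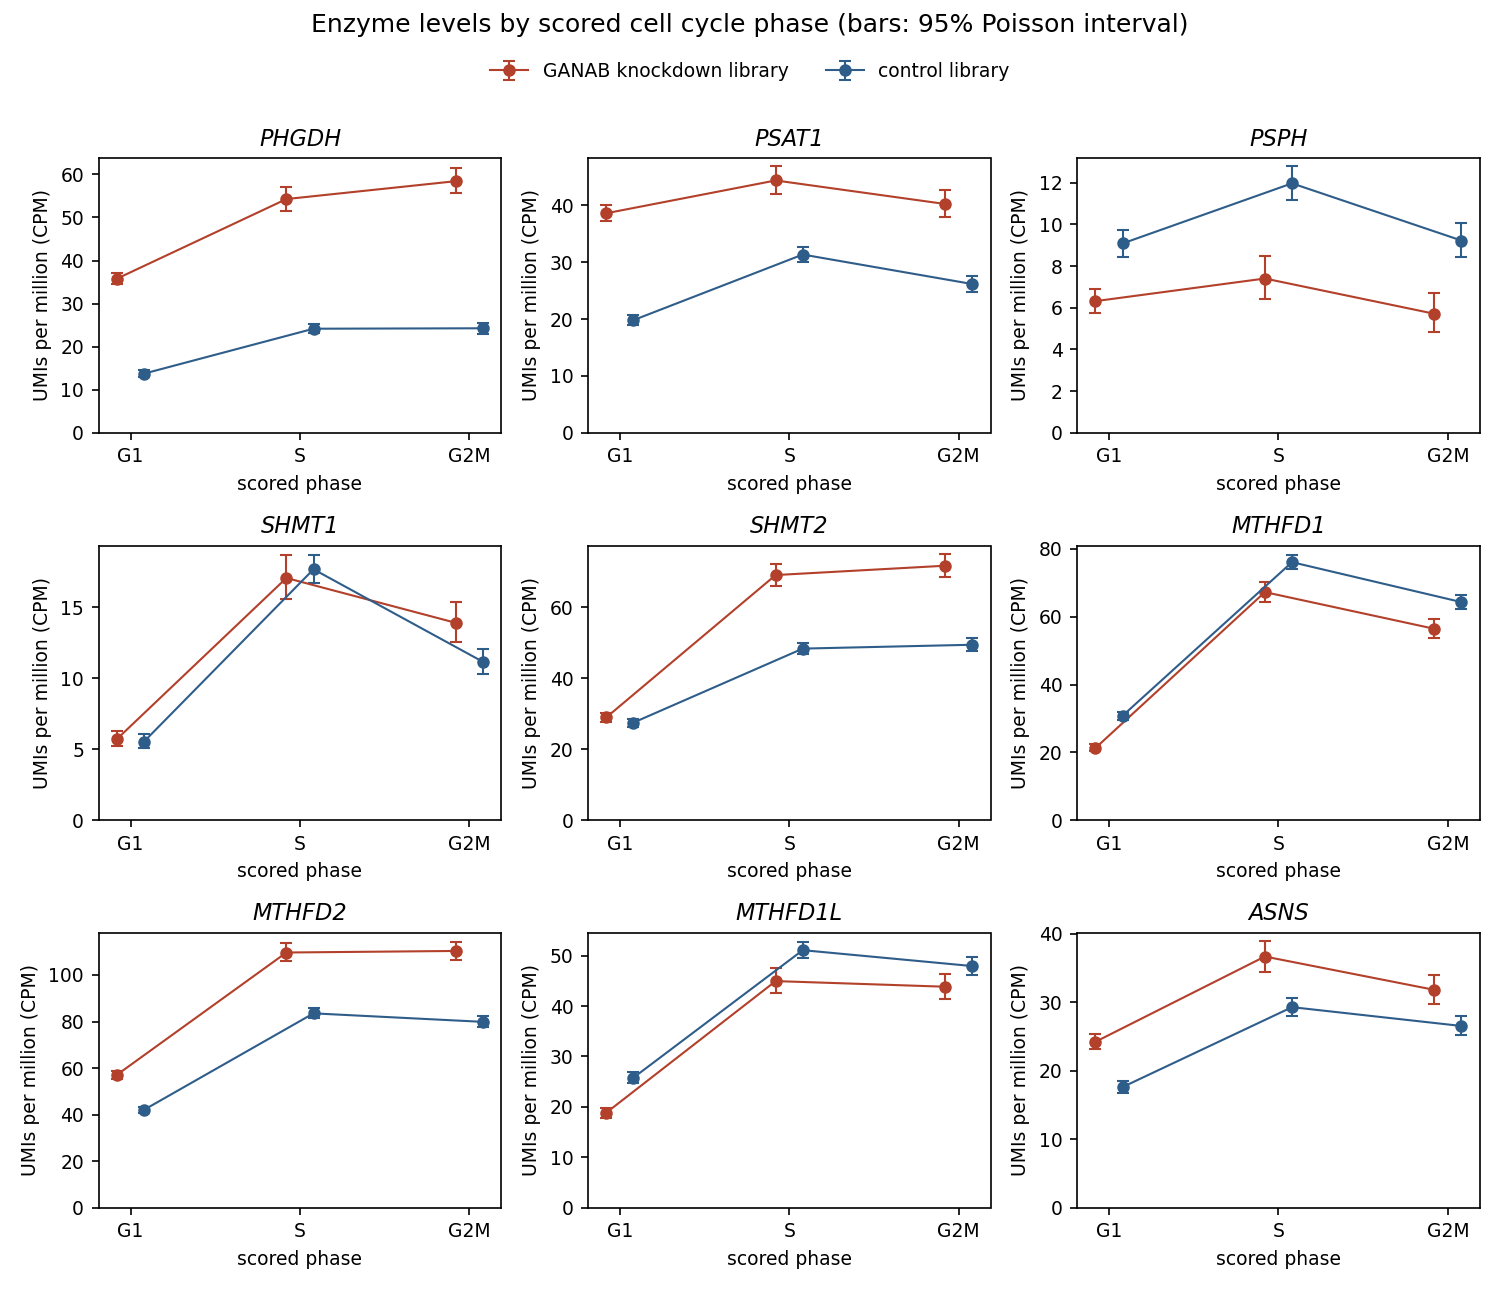
Level of each enzyme in CPM (vertical axis) in cells scored as G1, S and G2M (horizontal axis), knockdown library drawn left of control, with exact 95% Poisson intervals; lines join the phases of a library. MTHFD1 stands at 21.3, 67.3 and 56.5 CPM in knockdown cells and at 30.8, 76.1 and 64.3 CPM in control cells, while PHGDH is higher in knockdown cells in all 3 phases.

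Compared phase by phase over all cells, PHGDH was higher in the knockdown library each time. Its log2 ratio was 1.38 in G1, 1.17 in S and 1.27 in G2M cells, where 8.84%, 6.08% and 5.12% of genes were called higher and 10.1%, 8.15% and 10.8% lower. PSAT1 had 0.96, 0.50 and 0.62, the value in S being short of the rule. PSPH had -0.52, -0.69 and -0.69, but in G1 and G2M cells it was under 10 CPM in both libraries, so no call was possible there. In S cells it was called lower but passed the minimum only through the control library. The ratio of MTHFD1 was -0.53 in G1 cells, the value of all cells, but -0.18 in S and -0.19 in G2M cells, and that of MTHFD1L was -0.45, -0.18 and -0.13. SHMT2 had 0.07, 0.51 and 0.54. MTHFD2 had 0.44, 0.39 and 0.47 and ASNS 0.46, 0.32 and 0.26, each above its value without regard to phase (0.26 and 0.25) but short of the rule. SHMT1 had 0.05, -0.05 and 0.32, the first with too few counts for a call.

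Within positive cells of 1 phase, the counts behind the control values were small: 123 G1, 79 S and 39 G2M control cells beside 1403, 270 and 269 knockdown cells. MTHFD1 had log2 ratios of -0.38, -0.32 and -0.26 in G1, S and G2M cells, none past 1.5-fold, beside -0.65 without regard to phase. SHMT1 had -0.46, -0.37 and 0.21. It was not called in S or G2M cells, and in G1 cells it was under the minimum in both libraries (5.69 CPM in knockdown and 7.80 CPM in control cells), so no call was possible there. MTHFD1L in G1 cells was the single enzyme called, with 18.1 CPM in knockdown and 28.97 CPM in control cells (-0.68, -0.93 to -0.43), where 3.89% of 7678 genes were higher and 3.92% lower. In S cells 3.4% of genes were higher and 2.76% lower, and in G2M cells 2.65% and 8.17%. PHGDH had -0.24, -0.28 and -0.15, PSAT1 0.35, -0.03 and -0.17, and MTHFD2 0.08, 0.06 and -0.04. In G1 cells PSAT1 stood at 37.7 CPM in knockdown and 29.5 CPM in control cells. The interval of that ratio (0.12 to 0.59) left out equality, an excess short of the rule.

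Cell by cell, more knockdown than control cells carried PHGDH. With every cell thinned to 15000 UMIs, 39.0% of knockdown cells (37.1 to 40.8) and 19.7% of control cells (18.5 to 20.9) had a PHGDH UMI, and without thinning 65.4% and 38.6%. Thinned shares among positives were 37.7% of knockdown and 43.6% of control cells, and among negatives 43.3% and 18.2%. PSAT1 was found in 38.3% of knockdown and 28.5% of control cells, MTHFD1 in 34.2% and 47.5%, MTHFD2 in 53.6% and 53.4%, SHMT2 in 41.0% and 39.4%, MTHFD1L in 27.5% and 39.3%, ASNS in 27.7% and 26.0%, SHMT1 in 11.7% and 13.3% and PSPH in 8.57% and 13.1%. No cell class here should lack these enzymes, so the share that free RNA gives could not be set beside them. In barcodes with at most 100 UMIs, which hold free RNA, PHGDH was at 48.1 CPM in the knockdown and 16.7 CPM in the control library, and MTHFD1 at 31.2 and 52.7 CPM, close to the levels in cells.

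Without thinning, PHGDH UMIs were more concentrated in control cells, where its level was lower. The tenth of cells with the most PHGDH UMIs held 45.3% of them in the knockdown and 58.3% in the control library, and for PSAT1 it held 42.8% and 38.9%. This share was not matched for depth or level. For PSPH, which was lower in knockdown cells, it was 53.2% in the knockdown and 47.6% in the control library. The variance of thinned PSAT1 counts over their mean was 1.82 in knockdown and 1.25 in control cells, and that of PHGDH was 1.67 and 1.65. The most PSAT1 UMIs in 1 cell were 46 in the knockdown and 19 in the control library.

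Across cells the enzymes were only weakly correlated with each other. Over 36 pairs, Pearson's r of log thinned counts lay between -0.01 and 0.21 in 2672 knockdown cells (median 0.08) and between 0.00 and 0.16 in 4385 control cells (median 0.05). In counts this sparse such values are no finding. Among 2219 genes of at least 50 CPM in both libraries, the summed SHMT2, MTHFD2 and MTHFD1L counts went most closely with TUBA1B (r of 0.36 in knockdown and 0.37 in control cells), RAN (0.39 and 0.35), UBE2C (0.40 and 0.35), RANBP1 (0.36 and 0.35) and H2AFZ (0.36 and 0.34). UBE2C is a ubiquitin-conjugating enzyme of mitosis and TUBA1B a tubulin. For the serine enzymes PCLAF came first (0.18 and 0.15), followed by TUBA1B, NPM1, H2AFZ and TYMS, and among those for ASNS were HSPA9 (0.13 and 0.09), NPM1, HSPD1 and CCT2. Cells of a library share its free RNA, and those of 1 phase share much else.

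Neighbouring pathways were examined from 8 lists holding 100 genes. Glycine cleavage, the mitochondrial breakdown of glycine, had 0 higher and 1 lower of 3 measured genes (median log2 ratio -0.33): GLDC, its decarboxylase, stood at 8.48 CPM in knockdown and 16.7 CPM in control cells. GLDC passed the minimum only through its control level. Of 11 measured other folate enzymes and carriers, 0 were higher, and the median log2 ratio was -0.05. Of 6 genes of the methionine cycle and transsulfuration, MAT2A, which makes S-adenosylmethionine, was higher at 274 CPM in knockdown and 181 CPM in control cells, and AHCY, which clears S-adenosylhomocysteine, was lower at 86.2 and 145 CPM. Of 12 purine synthesis genes 0 were higher and 2 lower (median -0.32): IMPDH1 at 14.1 CPM in knockdown and 23.4 CPM in control cells, and IMPDH2 at 121 and 188 CPM, both inosine monophosphate dehydrogenases.

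Lists tied to amino acid supply showed few calls. None of 5 measured amino acid transporters was called (median 0.13), with SLC38A2 at 161 CPM in knockdown and 165 CPM in control cells. Of 18 aminoacyl-tRNA synthetases 0 were higher and 1 lower (median -0.25): KARS, which charges lysine tRNA, stood at 32.0 CPM in knockdown and 60.2 CPM in control cells. Of 7 genes of proline, alanine and aspartate synthesis none was called (median -0.04), with the aspartate aminotransferase GOT2 at 48.2 CPM in knockdown and 59.8 CPM in control cells. Of 15 measured ATF4 arm regulators and targets 2 were higher and 0 lower (median -0.06). They were NUPR1, a stress-induced chromatin protein, at 23.2 CPM (3083 UMIs) in knockdown and 1.14 CPM (244 UMIs) in control cells, and the transcription factor ATF3 at 37.3 and 22.2 CPM. NUPR1 passed the minimum only through the knockdown library. ATF4 itself, given for its place in the list, was at 109 CPM in knockdown and 129 CPM in control cells (-0.25). These counts stand beside the 7.69% higher and 10.4% lower over all genes.

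Among positive cells the medians of all 8 lists lay below equality. Scored S or G2M cells made up 27.8% of positive knockdown and 49.0% of positive control cells. The part of phase in the list ratios, here and over all cells, was not tested. The medians were -0.26 for other folate genes, -0.39 for purine synthesis, -0.37 for transporters, -0.30 for synthetases, -0.17 for the methionine list, -0.18 for glycine cleavage, -0.25 for proline, alanine and aspartate synthesis and -0.07 for the ATF4 arm, beside -0.09 over all genes. Of the folate list TYMS, the thymidylate synthase, was lower (99.6 CPM in knockdown and 161 CPM in control cells), and of the methionine list AHCY (85.1 and 133 CPM). Of the ATF4 arm NUPR1 (24.5 CPM in knockdown and 9.80 CPM in control cells), ATF3 (33.4 and 19.1 CPM) and DDIT4 (137 and 91.1 CPM) were higher and EIF4EBP1 (127 and 196 CPM) was lower. Here too NUPR1 passed the minimum only through the knockdown cells. In control cells by themselves, SLC1A5 (51.1 CPM in positive and 33.0 CPM in negative cells) and SLC38A1 (77.1 and 45.9 CPM), importers of neutral amino acids, were higher, and DDIT4 (91.1 and 147 CPM) was lower. NUPR1 was under the minimum for a call there, but 134 of its 244 control UMIs lay in positive cells. Its level was 9.80 CPM in those cells and 1.14 CPM over all control cells. TYMS, DDIT4, EIF4EBP1, SLC1A5, SLC38A1 and ATF4 were named after their values were seen.

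**Figure D5:**
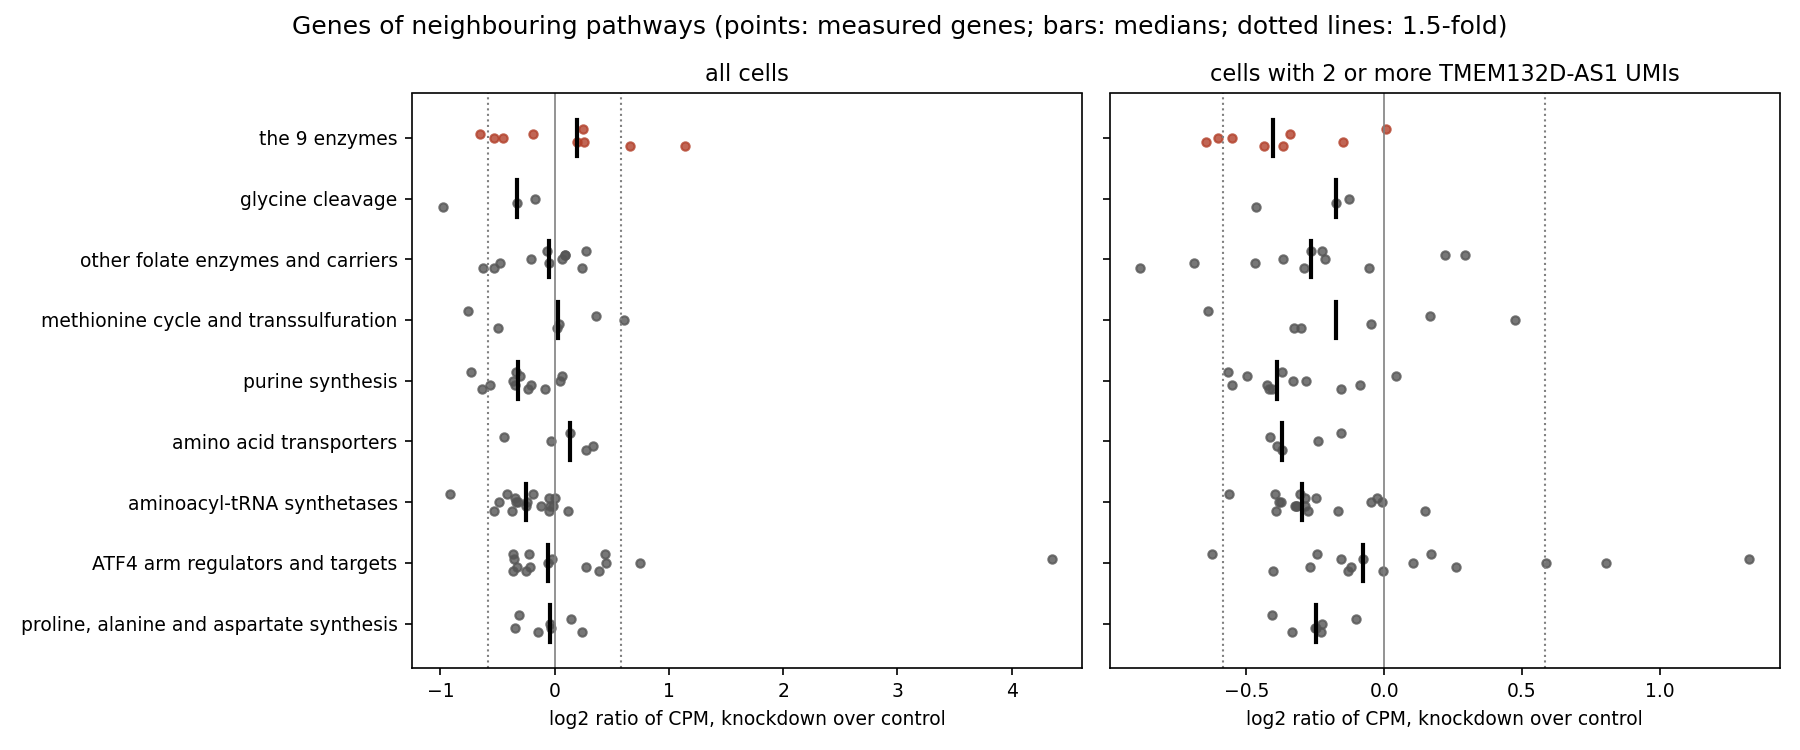
Log2 ratio of knockdown over control (horizontal axis) for the measured genes of the enzymes and of 8 related lists, over all cells (left) and over cells with 2 or more TMEM132D-AS1 UMIs (right); points are genes, black bars list medians and dotted lines 1.5-fold, and the axes of the panels differ. NUPR1 lies far to the right at 4.35 over all cells and at 1.32 in the right panel, where PSPH is left out of the top line for its low counts.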

How the data were processed

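The deposited matrices hold raw counts: the authors' UMI counts per gene and barcode, from 10x Genomics 3' v3 libraries. Cell Ranger 3.1.0 and GRCh38 are named in the submitters' processing notes, and the matrices' own headers give the same software version. All 6794880 barcodes per library are listed, so cells were called here. The sources used here state neither the reads' strand rule nor the treatment of mouse and intronic reads. Without the strand rule, SHMT1, SHMT2, MTHFD1, MTHFD2, MTHFD1L and TMEM132D-AS1, which overlap genes on the other strand, are uncertain. PSAT1, PSPH, SHMT1, MTHFD1, MTHFD2 and ASNS have pseudogenes named after them in GENCODE release 29 that the files do not list, and reads may be lost to or gained from them. Libraries held 155064055 UMIs (knockdown) and 239857346 UMIs (control), of which 132709954 and 214188781 lay in cells.

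UMIs were summed over cells and divided by the sum over all genes (CPM). Levels carry exact Poisson, ratios exact conditional binomial and shares Clopper-Pearson 95% intervals. UMIs remove PCR copies, but all intervals cover counting error only. Phases were scored with scanpy 1.11.5 (Python 3.11.15), scalings came from edgeR 4.0.16 and DESeq2 1.42.0 (R 4.3.3), used only for size factors. No test was possible with 1 library per group. No doublet caller was run. Positions came from GENCODE release 29, promoters from RefSeq.

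The enzymes, lists, markers and size rule were chosen with earlier results of these data known. All 9 enzymes and GANAB are named, and per list up to 3 called genes of largest ratio, or else the measured gene of highest level. Some genes that these rules took are not reported here, while list medians include all measured members. Fibroblast markers summed to 12.4 CPM in knockdown and 15.0 CPM in control cells, T and NK cell markers to 0 and 0.0327 CPM, endothelial markers to 0.317 and 0.103 CPM and erythroid markers to 0.595 and 1.21 CPM. By class, fibroblast markers summed to 26.0 CPM in positive and 14.4 CPM in negative control cells. In knockdown cells these sums were 13.7 CPM and 7.92 CPM. In simulated counts, each fold (0.25, 0.5, 2 and 4) was given to 50 genes, and every one of these was called in its direction, over all cells (7512 genes) and over positive cells (7472 genes). No fold near 1.5, up or down, was simulated, so calls close to the rule were not tested. Counts were drawn with Poisson error alone, without spread between cells or libraries. No gene near the minimum level was given a fold. Alternatives covered scaling, minimum level, fold, cell calling, equal weighting of cells, phase and the TMEM132D-AS1 threshold.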

Additional observations from a re-analysis of the deposited data

Results flagged for a closer look

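Of the 9 enzymes, 4 had ratios of opposite direction in the TMEM132D-AS1 classes over all phases, with intervals that left out equality in both. The share of all genes that did so is not given here, so nothing is read from the count. The log2 ratio of knockdown over control in positive and in negative cells was -0.37 and 1.499 for PHGDH, -0.43 and 0.38 for SHMT2, -0.15 and 0.36 for MTHFD2, and -0.34 and 0.50 for ASNS. Among positive cells of 1 phase, MTHFD2 was on the other side of equality in G1 (0.08) and S cells (0.06), and SHMT2 in G2M cells (0.07). Intervals there included equality for MTHFD2 in each phase and for SHMT2 in G2M cells. They also did for ASNS in G1 (-0.42 to 0.08) and G2M cells (-0.47 to 0.19), and for PHGDH in G2M cells (-0.38 to 0.09). Under TMM scaling the ratio of MTHFD2 in positive cells of all phases was -0.08. Its interval, with an upper bound of -0.06 before that shift of 0.07, then included equality. The difference between the classes was not tested, as each value compares 1 library with 1 library. Within the libraries, PHGDH stood at 42.7 CPM in positive and 49.5 CPM in negative knockdown cells, and at 55.1 CPM in positive and 17.5 CPM in negative control cells.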

How the results depend on the processing

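Over all cells the 2 higher and 1 lower calls became 0 and 0 at a minimum of 50 CPM (2 enzymes left) and 1 (PHGDH) and 0 when 2-fold was required. In G1 cells, where 7 enzymes were measured, the lower calls were 0. With cells weighted equally, which also left 7, the 1 lower call was MTHFD1. PSPH was under the minimum in both of these settings, so no call of it was possible. Among positive cells the 2 lower calls became 0 under TMM scaling and 0 at 2-fold, and 1 under each of median-of-ratios scaling, a minimum of 50 CPM and a TMEM132D-AS1 threshold of 1 UMI (MTHFD1 each time) and in G1 cells (MTHFD1L). They became 3 with cells weighted equally, MTHFD1L being added. In control cells the 3 higher calls became 1 (PHGDH) at 2-fold, and 4 at a TMEM132D-AS1 threshold of 4 UMIs, ASNS being added. The call of SHMT2 was lost at a threshold of 1 UMI (0.57) and in G1 cells (0.58), where ASNS was called instead, and PSAT1 was not measured at 50 CPM. The causes were not tested. The log2 ratio of PHGDH ran from 1.10 to 1.38 over all cells, from -0.46 to -0.24 among positive cells and from 1.58 to 1.77 between control classes, over 11, 14 and 14 settings. No called value changed sign. Scalings shifted all genes by at most 0.07 (log2).

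No paired analysis was possible because each group is 1 library. Leaving out a replicate was not possible for the same reason. Depth limits the positive control cells most, with 107 UMIs behind PSPH and 190 behind SHMT1.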

Other observations

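The genes near each enzyme on its chromosome were set beside it, counting measured genes that start within 5000000 bases. Around SHMT2 on chromosome 12, 75 such genes had a median log2 ratio of 0.33 over all cells, beside 0.19 for SHMT2 itself, and 76 had 0.37 between positive and negative control cells, beside 0.64. Among positive cells the median of its neighbours was -0.02. Around PHGDH on chromosome 1, 14 genes had a median of -0.28 over all cells, beside 1.14 for PHGDH. Around PSAT1 on chromosome 9, 8 genes had 0.07, beside 0.66. Around PSPH on chromosome 7, 9 genes had -0.50, beside -0.65, and around MTHFD1L on chromosome 6, 20 genes had -0.29, beside -0.45. For MTHFD1 on chromosome 14, 33 neighbours had a median of 0.00, beside -0.53. Positions are those of GENCODE on GRCh38.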
